A study of Equus caballus with 2 samples.

Results

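Several collagen genes other than the fibrillar and basement membrane collagens were followed in cultured equine endometrial fibroblasts, namely *COL6A1*, *COL6A2* and *COL6A3*, which encode the chains of the microfibrillar collagen VI, and *COL12A1*, *COL14A1* and *COL16A1*, which encode FACIT collagens (fibril-associated collagens with interrupted triple helices). They were chosen by gene symbol and class, together with *COL7A1*, the collagen of anchoring fibrils. No gene in the count tables carried the symbol *COL7A1*, so 6 of the 7 chosen genes were measured, out of 21426 genes and of 43 genes whose symbol has the form of a collagen chain. Endometrial fibroblasts from 4 mares with healthy or mildly fibrotic endometria were grown on collagen-coated hydrogels, pooled, and sequenced by droplet single cell RNA sequencing, as 1 control library and 1 library of cells given TGF-β1 (the recombinant human protein, 10 ng/ml) over 24 h. Both libraries were kept in medium with 0.1% bovine serum albumin during the treatment. The cells were passaged before use, were not assigned to their mares here, and the ages of the mares are not given in the sources used here. With 1 library per condition a difference between conditions could not be tested, so no p-value is given, and all intervals are 95% intervals that cover counting error only.

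Collagen VI is a heterotrimer of its chains that assembles into beaded microfilaments around cells and between collagen fibrils. FACIT collagens do not form fibrils alone. Collagens XII and XIV are homotrimers that sit on the surface of fibrils of collagen I and link them to other matrix molecules, and collagen XVI is a FACIT of connective tissue that has been found with both fibrils and microfibrils. Collagen VII forms the anchoring fibrils that tie epithelial basement membranes to the stroma below. TGF-β1 is a cytokine known to turn fibroblasts into contractile, matrix-producing myofibroblasts, the cells of endometrial fibrosis.

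After the filters 3865 of 4384 control barcodes and 4513 of 5124 TGF-β1 barcodes were kept, with 210497250 and 219731144 UMIs (unique molecular identifiers, 1 per captured transcript) and, in the median cell, 50313 and 43142 UMIs. The libraries shared 6 barcodes, 2 of them among kept cells. The cells carried the fibroblast markers in both libraries, where the 7 marker genes summed to 17043 CPM (counts per 1000000 UMIs) in control and 16124 CPM after TGF-β1, most of it from *COL1A1*, *COL1A2* and *VIM*. Of the 7 markers 4 were lower after TGF-β1, including *VIM* (4399 and 2240 CPM), *PDGFRB* (80.1 and 49.0 CPM) and, by more than 2-fold, *PDGFRA* (50.5 and 16.7 CPM), beside 3.46% of all genes of 1 CPM or more that were lower by as much. The 3 epithelial markers found summed to 0.124 and 0.255 CPM, and the 4 endothelial markers to 0.784 and 0.41 CPM. Of the 4 immune markers, which summed to 56.6 and 52.9 CPM, the pan-leukocyte gene *PTPRC* had 0.00475 CPM in control and 0 after TGF-β1, and nearly all of the sum came from *CD68* and *CD14*. The 4 mural markers summed to 741 and 656 CPM, mostly from *DES*. Of the others *RGS5* had 51.7 and 61.1 CPM, *MYH11* 42.9 and 25.3 CPM, and *NOTCH3* 0.2 and 0.141 CPM. The part of cells other than fibroblasts in the results was not tested.

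The question of the comparison was how TGF-β1 changes collagen transcripts of endometrial fibroblasts. *COL12A1* was higher and *COL14A1* lower in the TGF-β1 library, each by more than 2-fold, although both encode collagens of the same FACIT class. The chains of collagen VI did not move together: *COL6A3* was 1.55-fold higher, *COL6A1* 1.13-fold higher and *COL6A2* 1.10-fold lower. Thus 1 of the 6 genes was more than 2-fold higher, beside 2.3% of the 7658 genes that averaged 10 CPM or more, and 1 was more than 2-fold lower, beside 2.13%. At a limit of 1.5-fold 2 of the 6 were higher, beside 6.19% of those genes, and 1 lower, beside 6.48%. The median log2 ratio of all these genes was 0.0082, with 5th and 95th percentiles of -0.68 and 0.66.

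*COL12A1* was counted with 78638 UMIs in control, or 374 CPM (interval 371 to 376), and with 234368 UMIs after TGF-β1, or 1067 CPM (1062 to 1071). Its log2 ratio of 1.51 (1.502 to 1.53) ranked at the 99.2th percentile of the 7658 genes. *COL14A1* was counted with 7503 and 3369 UMIs, or 35.6 CPM (34.8 to 36.5) and 15.3 CPM (14.8 to 15.9). Its log2 ratio was -1.22 (-1.28 to -1.16), at the 1.40th percentile. As a result the UMI ratio of *COL12A1* to *COL14A1* went from 10.48 in control to 69.6 after TGF-β1. *COL16A1* lay close to the median gene, with 30.2 CPM (29.5 to 31.0) in control, 27.7 CPM (27.0 to 28.4) after TGF-β1 and a log2 ratio of -0.12 (-0.17 to -0.07).

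Among the chains of collagen VI, *COL6A1* had 239 CPM (237 to 241) in control and 270 CPM (268 to 272) with TGF-β1, and its log2 ratio was 0.18 (0.16 to 0.19). *COL6A2* had 259 CPM (257 to 261) and 235 CPM (233 to 237), a log2 ratio of -0.14 (-0.16 to -0.12). In the RefSeq annotation of the horse assembly TB-T2T these are near neighbours, on the same chromosome with 1 non-coding gene between them, and their small ratios had opposite signs. *COL6A3*, whose chain is the longest of the classical collagen VI chains, had 71.6 CPM (70.5 to 72.7) and 111 CPM (109.2 to 112), a log2 ratio of 0.63 (0.60 to 0.66) at the 94.6th percentile. Within the UMIs of the 3 chains, the share of *COL6A3* went from 12.6% (12.4 to 12.8) to 18.0% (17.8 to 18.2), and that of *COL6A2* from 45.5% (45.2 to 45.8) to 38.2% (37.9 to 38.5). The share of *COL6A1* was 41.9% (41.6 to 42.2) in control and 43.8% (43.6 to 44.1) after TGF-β1. These shares compare libraries for the same gene. They do not give the protein ratio of the chains, since 3' UMI counts are not calibrated between genes.

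**Figure D1:**
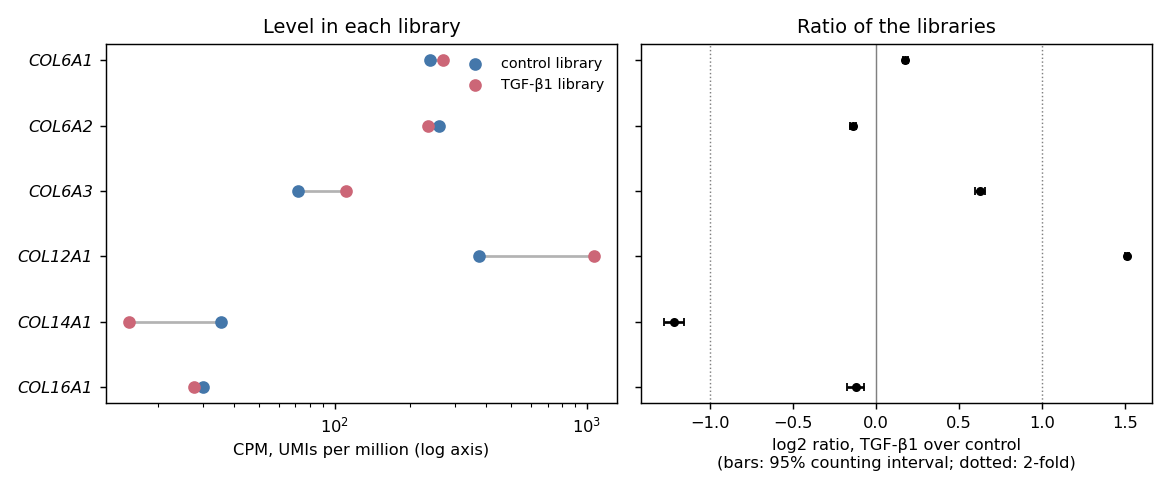
Level of each collagen gene in the control and the TGF-β1 library in CPM on a log axis (left), and the ratio of the TGF-β1 to the control level on the log2 scale, with its 95% counting interval (right). *COL12A1* (1.51) and *COL14A1* (-1.22) lie beyond the dotted 2-fold lines on opposite sides, and *COL6A3* (0.63) stands apart from *COL6A1* (0.18) and *COL6A2* (-0.14).

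To see how the transcripts were spread over the cells, each cell was thinned at random to 20000 UMIs, and no kept cell was lost by this. The difference in *COL12A1* was seen at low, middle and high percentiles of cells. Its median was 5 UMIs per thinned cell in control and 18 after TGF-β1, its 10th percentile was 1 and 7, and its 90th percentile 15 and 37. Cells without a *COL12A1* UMI numbered 215 of 3865 in control and 14 of 4513 after TGF-β1. The share of cells with a UMI was therefore 94.4% (93.7 to 95.1) and 99.7% (99.5 to 99.8), and 98.6% and 99.8% before thinning. The mean was 7.08 and 20.5 UMIs, with a variance 6.25 and 7.60 times the mean, and the highest 10% of cells held 31.5% and 22.8% of its UMIs. The variance ratio and this share depend on the mean, so no change in concentration over cells is read from them.

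*COL14A1*, in contrast, was found in a minority of thinned cells. Its share of cells with a UMI was 38.6% (37.1 to 40.2) in the control library and 21.4% (20.2 to 22.6) with TGF-β1, or 59.0% and 35.1% before thinning. Cells with 3 or more UMIs made up 7.74% of control cells and 2.04% of TGF-β1 cells. The highest 10% of cells held 51.1% of its UMIs in control and 63.5% after TGF-β1, and the variance was 2.40 and 1.70 times the mean. Both measures depend on the mean, which was 0.724 and 0.312 UMIs, so no change in concentration over cells is read from them. *COL16A1* was found in a similar share of cells in both libraries, 43.9% (42.3 to 45.5) and 41.5% (40.1 to 43.0), and its variance was close to its mean, at 1.11 and 1.10 times, which is near the value of 1 that counting alone gives. Before thinning the *COL16A1* shares were 74.2% and 68.2%. With another seed they were 45.5% and 40.7%, and at 10000 UMIs 26.1% and 23.2%, so the size of the gap depended on the setting.

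*COL6A1* and *COL6A2* were found in nearly all cells. *COL6A1* had a UMI in 97.0% (96.4 to 97.5) of the thinned cells in control and 98.1% (97.7 to 98.5) with TGF-β1, and *COL6A2* in 97.98% (97.5 to 98.4) and 97.3% (96.8 to 97.8). Before thinning these shares were 99.8% and 99.8% for *COL6A1*, and 99.7% and 99.8% for *COL6A2*. *COL6A3* was found in fewer, 61.8% (60.3 to 63.4) without and 72.7% (71.4 to 74.0) with the cytokine, or 81.4% and 86.1% before thinning. Cells with 5 or more *COL6A3* UMIs went from 5.51% to 13.5%. No cell type that should lack these collagens was present to give the share that free RNA in the droplets would produce.

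**Figure D2:**
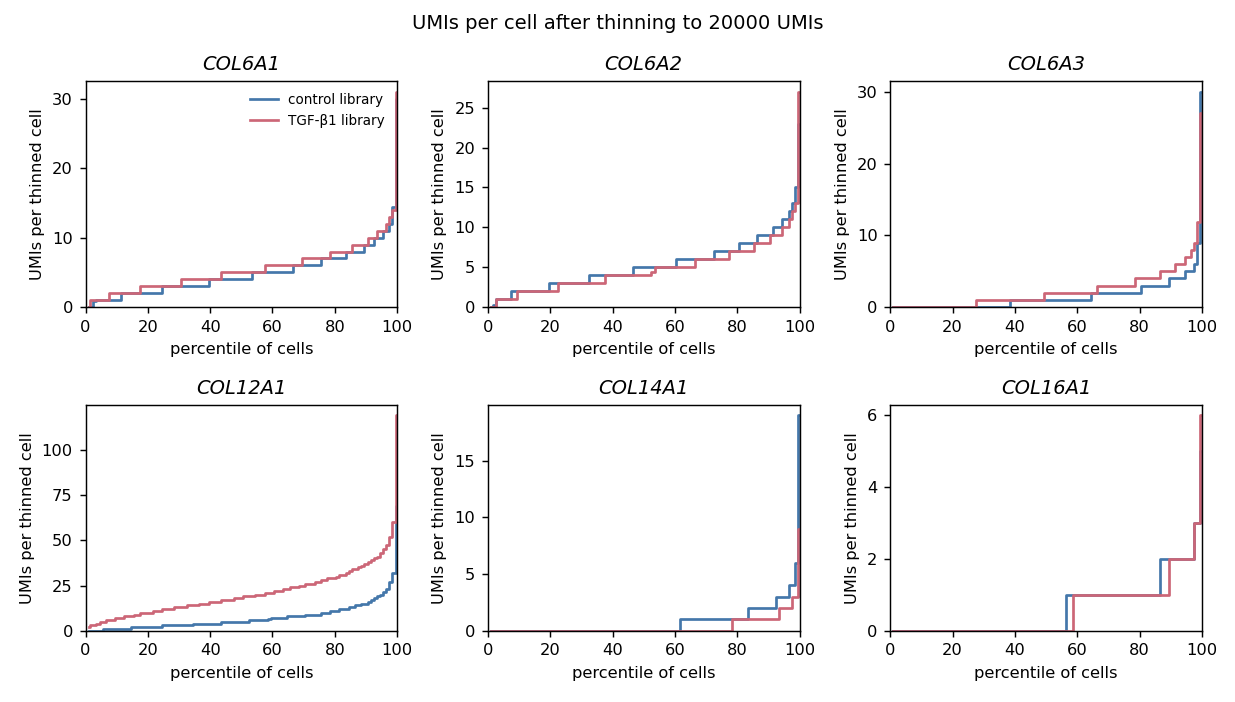
UMIs of each collagen gene per cell after thinning to 20000 UMIs, plotted against the percentile of cells, for the control and the TGF-β1 library. The *COL12A1* curves are apart over nearly the whole range of cells (median 5 and 18 UMIs), while the *COL14A1* curves leave 0 only in the upper part of the cells (38.6% and 21.4% of cells with a UMI).

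All 3 chains of collagen VI were detected together in 59.9% (58.4 to 61.5) of the thinned cells in control and 70.5% (69.2 to 71.8) with TGF-β1. The commonest partial set was *COL6A1* with *COL6A2* but without *COL6A3*, which made up 35.2% (33.7 to 36.8) of cells in control and 25.1% (23.9 to 26.4) with TGF-β1. Only 5 control cells and 6 TGF-β1 cells had no UMI of any of these chains. In cells without a *COL6A3* UMI the other chains were lower too, and so was *COL16A1*. *COL6A1* averaged 3.92 UMIs in control cells without *COL6A3* and 5.27 in those with it, and 4.19 and 5.79 in TGF-β1 cells. *COL6A2* averaged 4.36 and 5.68 UMIs in control and 3.85 and 5.03 after TGF-β1. *COL16A1* averaged 0.497 and 0.677 UMIs in control and 0.474 and 0.591 after TGF-β1, a ratio of 0.735 and 0.802 beside 0.743 and 0.724 for *COL6A1*. *COL12A1* differed little by the same split, with 7.39 and 6.89 UMIs in control and 20.1 and 20.7 after TGF-β1.

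Over cells, the chains of collagen VI had higher correlations with one another than with the FACIT collagens. Pearson correlations of log2(thinned UMIs + 1) over the 3865 control and 4513 TGF-β1 cells were 0.33 and 0.29 for *COL6A1* with *COL6A2*, 0.27 and 0.31 for *COL6A1* with *COL6A3*, and 0.25 and 0.25 for *COL6A2* with *COL6A3*. The remaining pairs lay between -0.07 and 0.11. *COL14A1* averaged only 0.724 and 0.312 UMIs per thinned cell and *COL16A1* 0.608 and 0.559, beside 4.76 and 5.35 for *COL6A1*. Counts this low hold a correlation down, so the values of *COL14A1* and *COL16A1* cannot be compared with those among the chains. *COL12A1* and *COL14A1*, whose levels moved in opposite directions between the libraries, had a weak positive value of 0.11 in both. Cells of a library share their source and their pool of mares, so these values are descriptions. The mean of *COL12A1* was 6.64 UMIs in control cells without *COL14A1*, 7.38 in those with 1 *COL14A1* UMI and 8.31 in those with 2 or more. After TGF-β1 the same means were 19.9, 21.7 and 25.2. Cells that held *COL14A1* were thus not the cells low in *COL12A1* in either library.

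Detection of the collagen VI chains was linked in the same way. *COL6A3* was found in 62.7% of control cells with *COL6A1* and 34.5% of the 116 without, and in 73.2% and 46.4% after TGF-β1, where 84 cells were without. By *COL6A2* its shares were 62.2% with and 46.2% without in control (78 cells without), and 73.3% and 51.7% after TGF-β1 (120 cells without). Of the 15 pairs in 2 libraries, the share of cells with both genes differed from the product of the single shares by more than its counting interval in 1 of 30, *COL6A3* with *COL16A1* in control (28.8% of cells with both against a product of 27.1%). The count was 0 after thinning to 10000 UMIs and 2 with another seed, so it rests on the draw. Where 1 gene of a pair is found in nearly all cells the product can hardly leave the interval, so this count says little about *COL6A1*, *COL6A2* and *COL12A1*. All 6 genes were detected together in 11.0% of control cells and 6.47% of TGF-β1 cells, and 4 of the 6 was the commonest number, in 37.9% and 42.4%.

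**Figure D3:**
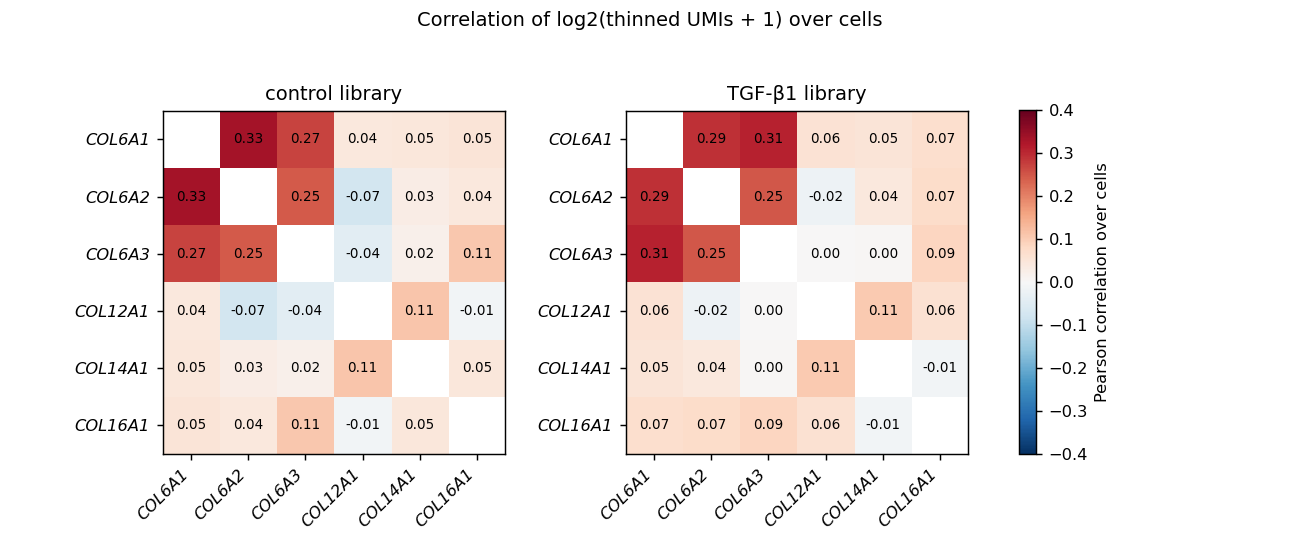
Pearson correlation of log2(thinned UMIs + 1) over cells for each pair of collagen genes, in the control library (left, 3865 cells) and the TGF-β1 library (right, 4513 cells). The chains of collagen VI stand out as a block of values from 0.25 to 0.33, and *COL12A1* with *COL14A1* has 0.11 in both libraries.

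Clusters were rebuilt from both libraries without the collagen genes described here, so that their differences between clusters were not built in. The 8 clusters held 107 to 911 control cells and 58 to 1231 TGF-β1 cells each. They were left without cell type names, except that cluster 6 was cycling-like, where 9 of 9 cycling markers found exceeded their level outside that cluster by more than 2-fold. Since cells were not assigned to mares, a difference between clusters and a difference between mares cannot be told apart.

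*COL12A1* was more than 2-fold higher after TGF-β1 in 8 of 8 clusters, with log2 ratios from 1.35 in cluster 1 to 1.85 in cluster 7. Its level still differed between clusters by 4.06-fold in control and 3.22-fold after TGF-β1. It was lowest in cluster 5, which was led by *CFD*, *CDC42EP2* and *CRABP2*, with 141 and 452 CPM. It was highest in cluster 1, led by *CA8*, *FGF14* and *NPFFR2*, with 571 and 1456 CPM. Cluster 5 after TGF-β1 thus stayed below cluster 1 in control. *COL14A1* was lower after TGF-β1 in 8 of 8 clusters, and more than 2-fold lower in 6, with log2 ratios from -1.49 in cluster 3 to -0.42 (-0.84 to -0.01) in cluster 7. The weakest cluster value was -1.15 at resolution 0.3 and -0.74 at 0.8. In cluster 7 the share of thinned cells with a *COL14A1* UMI was not lower after TGF-β1 (34.6% and 36.2%). The *COL14A1* level was highest in cluster 4, led by *EPHA6* and *EDIL3*, with 54.3 and 27.0 CPM, and lowest in cluster 5, with 18.3 and 9.53 CPM.

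*COL6A3* differed between clusters far more than its partner chains. In control it had 18.0 CPM in cluster 2, 43.5 in cluster 5, 62.8 in cluster 0 and 72.6 in cluster 6. The higher control levels were 87.9 CPM in cluster 1, 90.1 in cluster 7, 104.7 in cluster 4 and 108 in cluster 3. Cluster 2, led by *SPP1*, *MATK*, *KRT7* and *KRT8*, was therefore 6.004-fold below cluster 3, which was led by *COL4A3* and *DACH1*. After TGF-β1 the same clusters were lowest and highest, with 25.3 and 160 CPM, a 6.33-fold spread. *COL6A1* and *COL6A2* were also lowest in cluster 2, but their spread was 1.58- and 1.63-fold in control and 1.70- and 1.58-fold after TGF-β1. *COL6A3* accordingly made up 4.50% (4.19 to 4.82) of the collagen VI UMIs of cluster 2 in control, against 15.9% (15.5 to 16.4) in cluster 3. After TGF-β1 it made up 6.47% (6.04 to 6.92) and 21.9% (21.4 to 22.4). In thinned cells of cluster 2 a *COL6A3* UMI was found in 23.1% of 739 control cells and 28.0% of 624 TGF-β1 cells, against 77.5% and 85.5% in cluster 3. The part of free RNA in these shares was not tested.

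The log2 ratio of *COL6A3* was above 0 in 7 of 8 clusters, including 0.50 (0.35 to 0.64) in cluster 2. Its range over these 7 was 0.43 to 0.70. In all 7 the *COL6A3* interval lay above 0. The exception was cluster 7, where the ratio was -0.34 (-0.59 to -0.10). Cluster 7 was the smallest, with 107 control and 58 TGF-β1 cells, and was led by *CA4*, *GDF15* and *KRT1* (96.5-, 42.6- and 38.3-fold). *COL6A1* was also higher in 7 of 8 clusters, but in only 5 of them beyond its counting interval, and was at -0.15 (-0.28 to -0.02) in cluster 7. No cluster had a negative value for these genes at resolutions 0.3 and 0.8, but at 0.3 only 5 of 6 clusters held at least 50 cells of each library and were compared. *COL6A2* was lower in 8 of 8 clusters, in 7 of them beyond the counting interval, from -0.39 in cluster 7 to -0.01 in the cycling-like cluster 6. *COL16A1* was higher in 2 clusters and lower in 6, from -0.25 in cluster 1 to 0.37 in cluster 6.

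**Figure D4:**
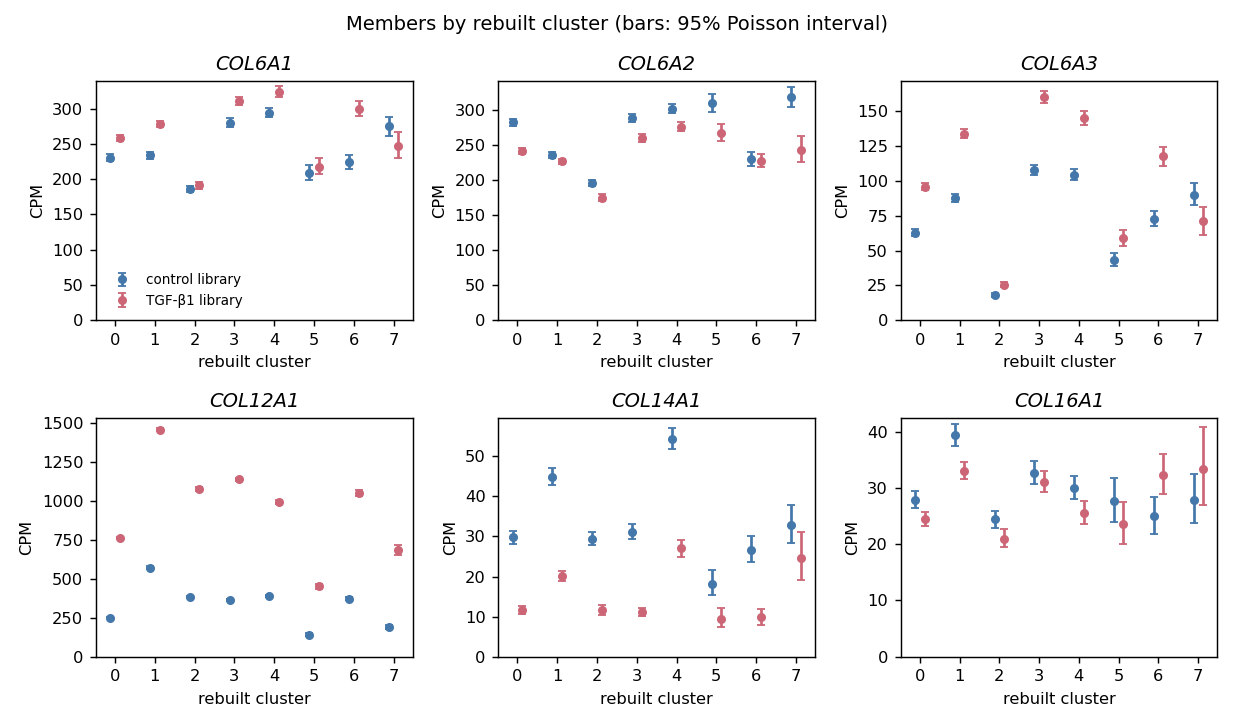
CPM of each collagen gene in the 8 rebuilt clusters of the control and the TGF-β1 library, with 95% Poisson intervals. *COL12A1* is higher after TGF-β1 and *COL14A1* lower in every one of the 8 clusters, and *COL6A3* is lowest in cluster 2 in both libraries (18.0 and 25.3 CPM).

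The number of UMIs per cell moved with some of these levels and its part in them was not tested. From the quartile of cells with the fewest UMIs to that with the most, *COL12A1* went from 277 to 444 CPM in control and from 810 to 1179 CPM after TGF-β1. *COL14A1* went from 40.9 to 33.9 CPM in control and from 13.5 to 16.0 CPM after TGF-β1. Within quartiles of the same rank the log2 ratio of *COL12A1* was 1.41 to 1.62, that of *COL14A1* -1.60 to -1.08, and that of *COL6A3* 0.51 to 0.67. The *COL14A1* ratio was thus strongest among the cells with the fewest UMIs.

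**Figure D5:**
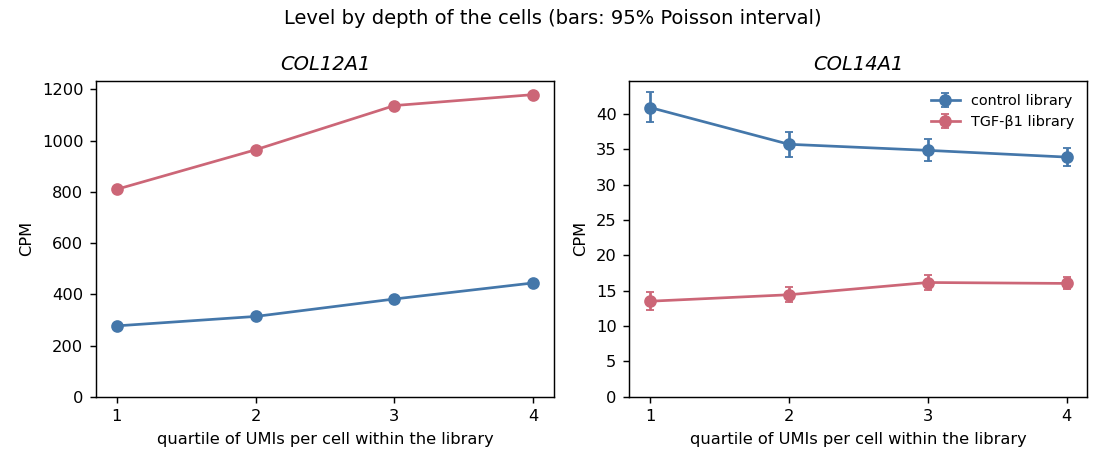
CPM of *COL12A1* (left) and *COL14A1* (right) by quartile of UMIs per cell within each library, with 95% Poisson intervals (some smaller than the points). The *COL12A1* level is higher in deeper cells of both libraries, and the 2 libraries are apart in all 4 quartiles for both genes.

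For each collagen gene, the genes most like it over cells were taken as the 5 with the highest correlation in the library where it was lower, out of 7207 genes. *COL12A1* had the most UMIs per thinned cell (7.08 and 20.5 on average), and low counts hold the correlations of the other genes down. Its companions, whose values were the highest found, can therefore not be ranked against those of the other collagen genes. They were *VCAN*, a large matrix proteoglycan (0.52 in control and 0.46 after TGF-β1), *ITGB1*, the shared beta subunit of many collagen and fibronectin receptors (0.47 and 0.45), *LTBP1*, which binds latent TGF-β to the matrix (0.43 and 0.44), *MYH10*, a non-muscle myosin (0.40 and 0.50), and *CALD1*, an actin-binding protein (0.50 and 0.39). The levels of these genes differed by library too, and *LTBP1* went from 134 to 353 CPM. *COL6A1* shared *FN1*, *COL3A1*, *AEBP1* and *CLU* with *COL6A2* among its 5, with values of 0.17 to 0.30. For *COL6A3* the first was *ANTXR1* (0.21 and 0.22), which encodes a cell surface receptor that binds collagen VI, followed by *FAP*, *APP*, *SFRP1* and *CRABP2*, all near 0.20 in at least 1 library. *COL14A1* was closest to *COL3A1* (0.21 and 0.18), then to *THBS2* (0.13 and 0.18), *ABI3BP* (0.15 and 0.13), *GUCY1A2* (0.12 and 0.12) and *DCN* (0.13 and 0.12). The genes most like *COL16A1*, led by *COL3A1* and *COL1A1*, reached at most 0.13, and values this low, those of *COL14A1* below its first included, are in such sparse counts not a finding.

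*COL12A1* and *COL6A3* were set differently against contractile genes over cells. The summed level of the 5 contractile genes correlated with *COL12A1* at 0.36 in control and 0.20 after TGF-β1 (Pearson; Spearman 0.36 and 0.098), and with *COL6A3* at -0.23 and -0.17. The 5 adventitial fibroblast genes, whose sum came almost wholly from *CFD* and *DPT*, correlated with *COL12A1* at -0.23 and -0.10 and with *COL6A3* at 0.22 and 0.18. With the 5 fibrillar collagen genes all 6 genes had positive values, from 0.11 to 0.31, the highest for *COL12A1* (0.25 and 0.31).

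Genes of the same classes and their partners were read against the 12116 genes that averaged 1 CPM or more, of which 3.45% were more than 2-fold higher and 3.46% more than 2-fold lower, with a median log2 ratio of -0.01. Of the other FACIT genes all 7 were found and 1 reached 1 CPM. This was *COL21A1*, which was lower like *COL14A1*, with 5.80 and 1.94 CPM and a log2 ratio of -1.58 (-1.74 to -1.42). The other microfibrillar and related genes (*COL6A5*, *COL6A6*, *COL26A1* and *COL28A1*) were all below 1 CPM. Of the alternative collagen VI chains among them, *COL6A5* was close to undetected, with 3 and 1 UMIs. *COL6A6* was low but detected, with 150 and 194 UMIs, or 0.713 and 0.883 CPM.

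The ligands, receptors and partners of the FACIT collagens were divided. Of the 8 genes 7 reached 1 CPM, 2 were more than 2-fold higher and 1 more than 2-fold lower, with a median log2 ratio of -0.0049. *COMP*, a pentameric matrix glycoprotein that binds collagen fibrils, had 0.508 CPM in control and 8.98 CPM after TGF-β1, 17.7-fold more, with a log2 ratio of 4.14 (3.86 to 4.44). *TNC*, the matricellular tenascin-C, had 132 and 389 CPM, a log2 ratio of 1.56 (1.54 to 1.58) close to that of *COL12A1*. *TNXB*, the tenascin-X of collagen fibrils, had 13.3 and 4.46 CPM, a log2 ratio of -1.58 (-1.68 to -1.47), and *FMOD*, the proteoglycan fibromodulin, had 3.85 and 2.14 CPM (-0.85). The tenascins thus split as *COL12A1* and *COL14A1* did.

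Among genes for proteins that bind or share microfibrils with collagen VI, 7 of 8 were found and none of these was more than 2-fold apart, with 5 higher, 2 lower and a median log2 ratio of 0.26. *HTRA1*, a secreted protease, had 288 and 457 CPM (0.67), and *BGN*, the proteoglycan biglycan, had 656 and 1004 CPM (0.61). The 2 lower genes were the anthrax toxin receptor genes, *ANTXR2* with 177 and 107 CPM (-0.73) and *ANTXR1* with 63.5 and 59.3 CPM (-0.10), while *CSPG4*, a proteoglycan that also binds collagen VI at the cell surface, had 1.07 and 1.11 CPM (0.05). *COL6A3* was therefore higher while the receptor most like it over cells was slightly lower between libraries.

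*COL7A1* itself was not analysed here, but 5 of 8 genes of the anchoring complex and of collagen VII maturation reached 1 CPM. None of the 5 was more than 2-fold apart, and their median log2 ratio was -0.21. *BMP1*, the proteinase that trims collagen VII and fibrillar procollagens, had 78.1 and 107 CPM (0.45), and *ITGA6* 2.44 and 2.61 CPM (0.10). *LAMA3*, a laminin-332 chain, had 27.8 and 14.4 CPM (-0.95), and *TGM2*, a transglutaminase, 15.5 and 12.9 CPM (-0.27). *LAMB3*, *COL17A1* and the hemidesmosome integrin gene *ITGB4* averaged below 1 CPM.

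The 5 fibrillar collagen genes were all higher by less than 2-fold, with a median log2 ratio of 0.26. *COL5A1* led with 270 and 402 CPM (0.57), followed by *COL3A1* with 4456 and 5583 CPM (0.33). *COL12A1* thus differed more between libraries than any of these fibril-forming genes, and *COL6A3* about as much as *COL5A1*. Of the 5 contractile genes 4 were higher, with a median of 0.39. Of these 1, *CNN1*, was more than 2-fold higher (193 and 453 CPM), beside 3.45% of all genes of 1 CPM or more. *TAGLN* had 4603 and 7052 CPM (0.62) and *MYL9* 999 and 985 CPM (-0.02). Of the adventitial genes 2 reached 1 CPM. *DPT*, which encodes the collagen-binding dermatopontin, was 2.89-fold higher (70.3 and 203 CPM), and *CFD* was 6.28-fold lower (219.5 and 34.97 CPM). Of all genes of 1 CPM or more, 3.45% were more than 2-fold higher and 3.46% more than 2-fold lower.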

How the data were processed

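Per the labels and methods, the authors sequenced 10x 3' libraries and made UMI counts per gene and barcode with Cell Ranger 7.1.0 (the deposited headers name 8.0.1) against EquCab3.0, Ensembl 109. Cells pooled from 4 mares gave 1 library per condition. Cells with at least 20000 UMIs, 3500 genes and under 4% mitochondrial UMIs were kept, as in the study. The authors split each pool by mare and called doublets from the reads, and neither step was repeated here. Counts were summed per library and scaled to CPM in Python 3.11.15 (numpy 2.4.6, scipy 1.17.1, pandas 2.3.3). Intervals are exact Poisson for CPM and Clopper-Pearson for shares and ratios, without a pseudocount. Cells were thinned to 20000 UMIs for shares and correlations. Clusters came from Seurat 5.3.0 in R 4.3.3 (2000 variable genes less 3 of the collagen genes, 30 dimensions, canonical correlation integration, resolution 0.5). The collagen genes and all gene lists were chosen with earlier results of these data known. Each collagen, partner or state list is named through its 2 largest ratios in each direction among genes of at least 1 CPM, and other listed genes were named after their values were seen. Alternatives concerned cell filters, scaling, thinning, the fold limit and clustering. The MFGE8-treated cells and all sequences were not used here. One gene among those most like *COL16A1* is not reported here.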

Additional observations from a re-analysis of the deposited data

Results flagged for a closer look

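Barcodes that the filters left out entered only the alternatives with looser filters or none. On their own, 3 collagen genes were higher in the TGF-β1 barcodes left out than in the control barcodes left out. There were 519 such control barcodes with 3785520 UMIs and 611 TGF-β1 barcodes with 4458807 UMIs. *COL12A1* had 2589 CPM after TGF-β1 (interval 2542 to 2637) and 896 CPM in control, a log2 ratio of 1.53. *COL6A3* had 239 CPM (225 to 253) and 154 CPM, a log2 ratio of 0.63, and *COL6A1* had 363 CPM (345 to 381) and 325 CPM, a log2 ratio of 0.16. In the kept cells these ratios were 1.51, 0.63 and 0.18. The levels were higher than in kept cells in both libraries, by 2.40- and 2.43-fold for *COL12A1* and by 2.15- and 2.16-fold for *COL6A3*. *COL16A1* was also higher there, by 2.54- and 2.51-fold, with 76.9 CPM in control and 69.5 CPM after TGF-β1. *COL14A1* had 34.1 and 20.4 CPM, a log2 ratio of -0.74 (-1.14 to -0.34) that was within 2-fold, beside -1.22 in kept cells. *COL6A2* had 416 CPM in control and 349 CPM with TGF-β1, and its log2 ratio was -0.25 (-0.35 to -0.15) beside -0.14 in kept cells, and was 1.60- and 1.48-fold above its kept level.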

How the results depend on the processing

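With 1 library per condition no replicate could be left out. No paired analysis was possible because the cells, which the authors split by mare from the reads, were not assigned to mares here, which leaves 1 library per condition and no test. The sign of the library ratio held for all 6 genes under 10 other filters and scalings. The log2 ratios ran from 0.14 to 0.20 for *COL6A1*, -0.18 to -0.12 for *COL6A2*, 0.55 to 0.65 for *COL6A3*, 1.45 to 1.54 for *COL12A1*, -1.26 to -1.19 for *COL14A1* and -0.17 to -0.10 for *COL16A1*. The lowest *COL6A1*, *COL6A2*, *COL6A3* and *COL12A1* values (0.14, -0.18, 0.55 and 1.45) came without cells holding a *KRT8* UMI, a choice made after seeing the data. Median-of-ratios size factors gave 0.20, -0.12 and 1.54 for *COL6A1*, *COL6A2* and *COL12A1*. *COL12A1* was also 1.54 with per-cell CPM and without the cells above the 98th percentile of UMIs. With equal cluster shares *COL6A3* was 0.56 and *COL12A1* 1.48. A 1.5-fold limit called 2 of the 6 genes higher, and 474 genes higher and 496 lower over all genes. At 1 CPM 418 were more than 2-fold higher and 419 lower. Pairs beyond their interval numbered 0 at 10000 UMIs and 2 with another seed. The share of cells with *COL6A2* was lower after TGF-β1 at 20000 UMIs (97.98% and 97.3%) but not at 10000 (87.7% and 87.8%) or with another seed (97.7% and 97.8%), so no order is read from it. The lowest cluster ratio of *COL6A1* was 0.042 at resolution 0.3 and 0.0046 at 0.8, and that of *COL6A3* 0.46 and 0.39, with 5 of 6 and 11 of 11 clusters compared. Without integration 1 of 7 clusters held at least 50 cells of each library, with 0.48 for *COL6A1*, 0.76 for *COL6A3*, 0.086 for *COL6A2* and 0.52 for *COL16A1*. The cause of the moves at other resolutions was not tested. The lowest *COL6A3* share of control collagen VI UMIs over clusters was 4.53%, 3.54% and 4.55% under these settings.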

Other observations

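Cells with UMIs of 3 or more cycling markers numbered 85 in control and 105 after TGF-β1. In the TGF-β1 library *COL6A1* had 314 CPM (301 to 327) in these cells and 268 CPM (266 to 271) in the others, *COL16A1* 34.3 CPM (30.1 to 38.9) and 27.5 CPM (26.8 to 28.2), and *COL12A1* 1016 CPM (993 to 1040) and 1068 CPM (1064 to 1073). In control *COL6A2* had 220.5 CPM (209 to 233) in cycling cells and 260.3 CPM (258 to 263) in the others, and *COL6A1* 231 CPM (219 to 243) and 239 CPM (237 to 241). *COL16A1* went the other way in control, with 24.4 CPM (20.7 to 28.6) in cycling cells and 30.4 CPM (29.6 to 31.2) in the others, and *COL12A1* had 342 CPM (328 to 357) and 375 CPM (372 to 377). Of the 9 cycling markers found, 8 were lower after TGF-β1, 1 of them by more than 2-fold, beside 3.46% of all genes of 1 CPM or more (*CDC20*, 4.57 and 1.77 CPM), followed by *ASPM* (4.75 and 2.43 CPM), with *AURKA* at 16.1 and 24.2 CPM.

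*KRT8*, a keratin gene among the leading genes of cluster 2, was looked at after its values were seen. A *KRT8* UMI was found in 25.1% of thinned control cells and 3.35% of thinned TGF-β1 cells. *COL6A3* averaged 1.20 UMIs in control cells with *KRT8* (interval 1.13 to 1.27) and 1.504 in those without (1.46 to 1.55). After TGF-β1 it averaged 1.74 (1.53 to 1.96) and 2.22 (2.17 to 2.26). This gap is small beside that between cluster 2 and the other clusters. *COL14A1* after TGF-β1 averaged 0.139 UMIs (0.0861 to 0.213) in the 151 cells with *KRT8* and 0.318 (0.301 to 0.335) in the 4362 without, on 21 UMIs in the former. In control the *COL14A1* means were 0.629 (0.58 to 0.68) and 0.757 (0.725 to 0.789). *COL12A1* averaged 6.01 UMIs (5.86 to 6.17) in control cells with *KRT8* and 7.44 (7.35 to 7.54) in those without, a gap of 1.24-fold beside 1.25-fold for *COL6A3*.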
